A study of Homo sapiens with 10 samples.

Results

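The cytoskeletal genes described here are 9 members of the intermediate filament family: the keratin genes KRT7, KRT8, KRT17, KRT18 and KRT19, vimentin (VIM), nestin (NES), and the light and medium neurofilament genes NEFL and NEFM. They were chosen by name and looked up by symbol in 4 tables of transcript levels, keeping for each symbol the row with the highest mean level, and are 9 of the 22848 symbols that all 4 tables held. RNA with poly-A tails was sequenced from human embryonic stem cells (hESC, the control) of the established line WA09, and from 4 cell types derived from it, with 2 libraries each and 10 in all. Each derivative has 1 table, which sets it against the same hESC libraries. The authors' values are FPKM, which divide the fragments of a gene by its transcript's length in kilobases and by the library's mapped fragments, so that levels of genes of different length can be compared.

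All cells were WA09 on matrigel in DMEM/F-12 medium. hESC stayed for 4 days in medium with Activin A (10 ng/mL), FGF (8 ng/mL), Heregulinβ-1 (10 ng/mL) and IGF-I (200 ng/mL). Definitive endoderm (DE) was made in 4 days with a higher dose of Activin A (100 ng/mL), the same FGF, and Wnt-3a (25 ng/mL) during day 1 only; it received neither IGF-I nor Heregulinβ-1. Splanchnic mesoderm (MESO) was made in 4 days by adding BMP-4 (100 ng/mL) and Wnt-3a (25 ng/mL) to the 4 hESC factors at unchanged doses. Neural progenitor cells (NPC) were made in 6 days with Heregulinβ-1, IGF-I, LDN (a BMP receptor inhibitor, 500 nM) and the activin receptor inhibitor SB431542, without FGF or Activin A. The pre-neural crest group (NCSC) was made in 6 days with FGF, Heregulinβ-1, IGF-I, SB431542 and the GSK3 inhibitor BIO, without Activin A. NPC and NCSC were seeded at 90000 cells per square centimetre and the others at 50000, so time and density cannot be told apart from treatment in these comparisons.

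Intermediate filaments are rope-like polymers that give cells mechanical strength, and the set of subunits a cell makes changes with its type. Keratins polymerise only as pairs of a type I chain (KRT17, KRT18, KRT19) and a type II chain (KRT7, KRT8), and KRT8 with KRT18 is the pair of simple epithelia and of the early embryo. Vimentin is the filament of mesenchymal cells, nestin co-assembles with vimentin and is widely used to mark neural progenitors, and neurofilament chains are the filaments of neurons and their axons.

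Only 1 value per cell type stands in each table, so no spread between libraries could be computed and no value below carries an SD; the labels do not say whether the paired libraries came from separate cultures. The read depth is unknown. A gene is said to have risen or fallen where the authors' q-value, their p-value corrected over the table, was below 0.05, and changes are differences of log2(FPKM + 1), a scale that understates the change of low genes. The 4 hESC columns give a view of the stability of a value between tables: for 5914 symbols at 10 FPKM or more, the highest hESC value was a median of 1.21 times the lowest, and for 8 of the 9 members it was 1.09 to 1.26 times. KRT17, which lay near 0 in hESC, differed 2.11-fold. Markers of the labels were present: 6 of 10 tested endoderm genes rose in DE, 14 of 15 neural progenitor genes in NPC, and 5 of 9 neural crest and border genes in NCSC. The last list does not set NCSC apart, since 7 of 11 of its genes tested rose in MESO and 5 of 10 in NPC, and in NCSC SOX10 (2.57 in hESC, 2.91 in NCSC) did not pass and FOXD3 fell from 10.7 FPKM to a listed 0. In MESO the splanchnic genes FOXF1 (0 to 7.26 FPKM) and HAND1 (1.27 to 758) rose, and HAND2 (0.0274 to 20.6) did not pass. They are among 9 genes looked up for this label. HAND1 is also on the trophoblast and amnion list used below, so it does not set splanchnic mesoderm apart. Over all loci tested, 0.407% rose in DE, 9.06% in MESO, 12.0% in NPC and 10.2% in NCSC.

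In hESC the simple keratins, vimentin and nestin stood at about the same level. KRT8 was at 89.4 to 97.7 FPKM over the 4 tables, KRT18 at 80.0 to 87.4, KRT19 at 104 to 115, VIM at 78.3 to 93.8 and NES at 82.0 to 92.9. NEFM was at 10.2 to 11.3 FPKM, NEFL at 5.78 to 6.79 and KRT7 at 1.86 to 2.35, while KRT17 stayed at 0.0927 to 0.195. The derivatives then parted from this common start, the keratins in both directions, VIM with higher values in all 4, and NES by little.

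**Figure D1:**
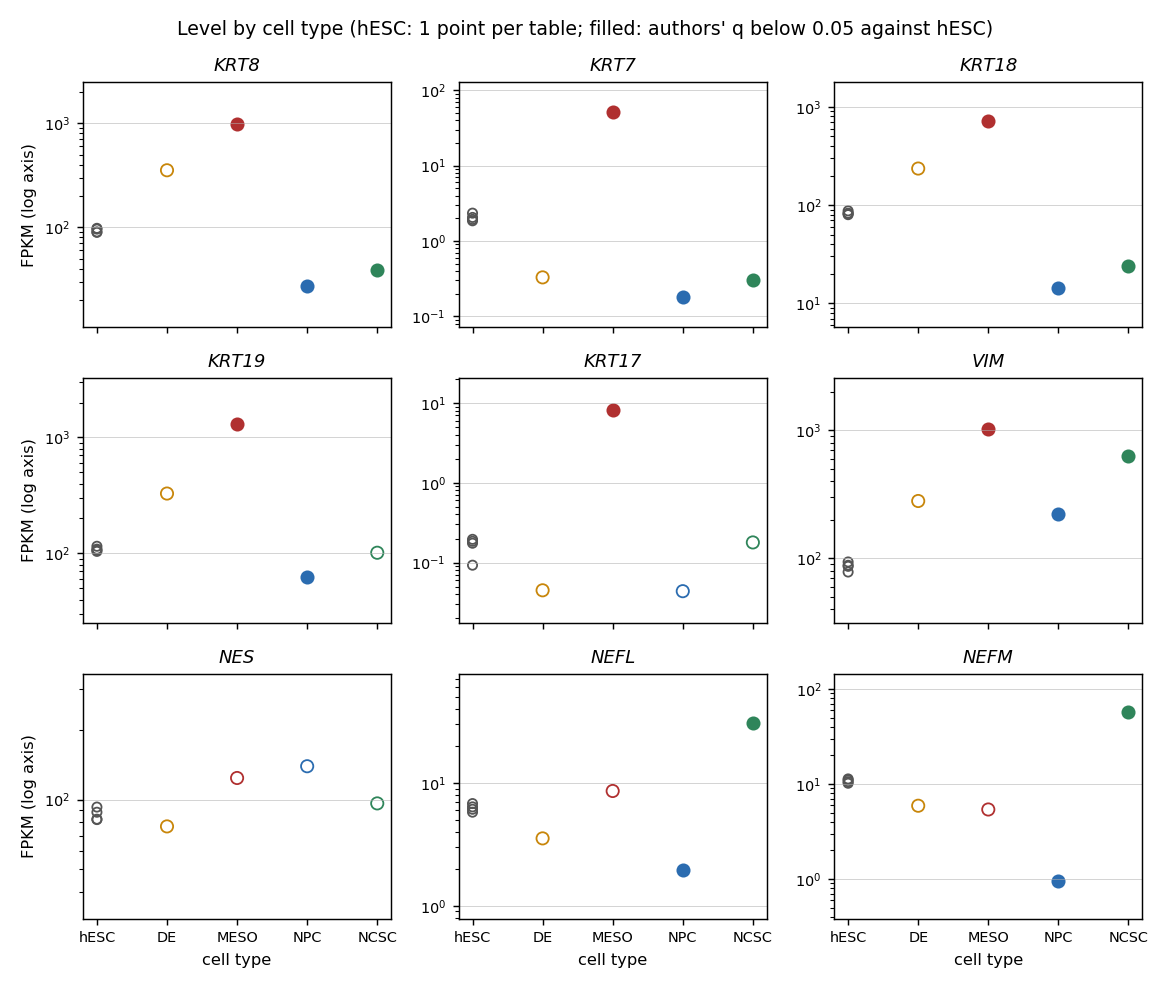
FPKM on a log axis of each of the 9 genes in hESC (4 open points, 1 per table) and in DE, MESO, NPC and NCSC (1 point each, filled where the authors' q against hESC was below 0.05). MESO is the highest cell type for all 5 keratins and VIM, NCSC for NEFL and NEFM, and the NES values lie within 1.82-fold of each other.

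In MESO 6 of the 9 members rose and none fell, all 9 being tested; of all loci tested in that table, without those of 18 symbols set apart, 14.4% were called, 9.06% as risen and 5.36% as fallen. In NPC 1 of 8 tested members rose and 6 fell, where 36.8% of loci were called, 12.0% as risen and 24.8% as fallen. In NCSC 3 of 8 tested members rose and 3 fell, where 30.0% of loci were called, 10.2% as risen and 19.8% as fallen. In DE none of 8 tested members passed the authors' q, where 0.427% of loci were called, 0.407% as risen and 0.0203% as fallen; 3 of the 8 (KRT8, KRT19 and VIM) had an unadjusted p below 0.05, as did 4.89% of all loci tested there. Normal p-values from the authors' statistic, adjusted over the table, called 0 members in DE (1.23% of loci), 6 in MESO (7.9%), 6 in NPC (22.4%) and 5 in NCSC (16.0%). The median change of the members tested was 0.61 in DE, 3.14 in MESO, -1.39 in NPC and 0.06 in NCSC, where the medians of all tested loci were 0.04, 0.06, -0.25 and -0.22. The log2 ratio divided by the statistic was taken over loci with a mean of at least 20 FPKM. Its median was 0.710 in DE, 0.609 in MESO, 0.434 in NPC and 0.437 in NCSC. The same change thus typically gave a smaller statistic in DE than in NPC or NCSC, so calls cannot be compared directly between tables. All 4 comparisons share the hESC libraries, so they are not independent of each other.

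**Figure D2:**
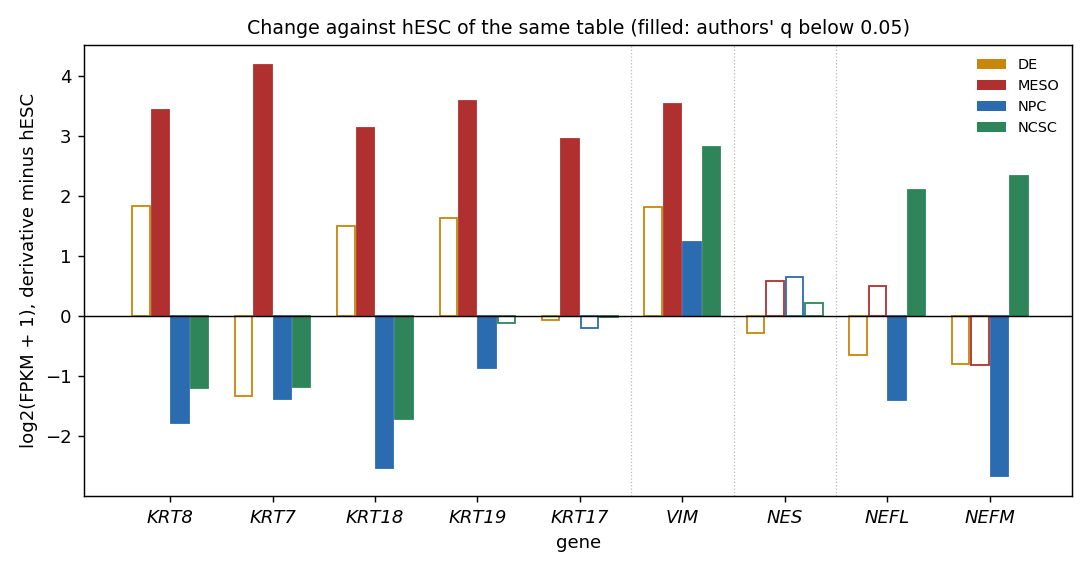
Difference in log2(FPKM + 1) of each derivative from hESC of the same table (vertical axis), for the 9 genes ordered by filament class; bars are filled where the authors' q was below 0.05 and open otherwise. The 5 keratin bars of MESO lie between 2.96 and 4.19, and the keratin bars of NPC and NCSC lie below 0, though 3 that were not called, KRT17 in both and KRT19 in NCSC, lie above 0 under another scaling.

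KRT8 and KRT18, the type II and type I partners of simple epithelia, kept a common order of cell types: MESO highest, then DE, hESC, NCSC and NPC. KRT8 was at 353 FPKM in DE, 987 in MESO, 27.5 in NPC and 38.8 in NCSC. KRT18 was at 236 FPKM in DE, 712 in MESO, 14.3 in NPC and 24.2 in NCSC. Each derivative lay on the same side of the 4 hESC columns for both genes. Those columns come from the same hESC libraries, so their range is not a spread between cultures. The log2 change of KRT8 was 3.45 in MESO, an 11.0-fold rise with q = 0.000868 in the authors' deposited table. KRT18 rose 8.90-fold in MESO, a change of 3.14, with q = 0.00218 in the authors' deposited table. In NPC the authors' deposited table gave q = 0.000323 for both, with KRT8 3.50-fold and KRT18 6.11-fold lower than in hESC. In NCSC they were 2.33-fold and 3.38-fold lower, with q = 0.00252 and 0.000848 in the authors' deposited table. The fall of KRT8 in NCSC is not called when p-values are taken from the authors' statistic by the normal distribution (adjusted p = 0.0745). In DE the values were 3.61-fold and 2.85-fold those of hESC and neither passed, with q = 0.703 and 0.999 in the authors' deposited table. In these bulk samples fewer cells of a type and less RNA per cell cannot be told apart.

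The balance of the pair moved as well. KRT8 was 1.10 to 1.18 times KRT18 in the hESC columns, 1.50 times in DE, 1.39 in MESO, 1.92 in NPC and 1.60 in NCSC, so KRT18 was the lower partner in every column and more so in each derivative. No test of this ratio was possible. The 2 genes are neighbours on chromosome 12, and the tables give both the same span (hg19, 53290970 to 53346999 in the MESO table) for rows on opposite strands. Whether the libraries kept strand is not given in the sources used here, so reads from places where transcripts of the 2 genes overlap cannot be told apart. Both genes also have many processed copies in the genome: at 85% identity over at least 100 bases, the GENCODE 29 transcript of KRT8 matched 43 pseudogenes named after it and that of KRT18 matched 61, with a best identity of 97.1% and 95.2%. How reads that match several places were counted is not given, so levels of this pair are uncertain to that extent. The 2 copies of them that the tables follow in every comparison were low: in the authors' deposited table for MESO, KRT8P41 rose from 0.258 to 2.03 FPKM (q = 0.0164) and KRT18P55 from 0.255 to 2.67 (q = 0.00509).

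KRT19, a small type I keratin that also pairs with KRT8, was the most abundant of the 9 in hESC and in MESO. It was at 328 FPKM in DE, 1298 in MESO, 62.8 in NPC and 101 in NCSC. Only NCSC lay close to the hESC columns, just under their lowest value of 104. The rise in MESO was 12.2-fold, with q = 0.000868 in the authors' deposited table. In NPC KRT19 was 1.83-fold lower, a change of -0.86 with q = 0.00686 in the authors' deposited table. That fall is not called with normal p-values from the statistic (adjusted p = 0.0932), and its size was -0.29 after quantile normalisation. In NCSC the change was -0.10 and the authors' deposited table gave q = 0.790. KRT19 therefore differed from its partner KRT8 in these neural and crest derivatives: its share of the summed keratin FPKM was 36.2% to 38.4% in hESC, 35.8% in DE and 42.5% in MESO, but 59.9% in NPC and 61.4% in NCSC. The difference in share was not tested. In DE the 3.15-fold higher value had p = 0.0104 and q = 0.297 in the authors' deposited table.

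KRT19 has a processed copy, KRT19P2, that carries the annotated microRNA MIR492, and the tables merge these 2 symbols in 1 locus (hg19, chromosome 12, 95228173 to 95228804). The RefSeq hairpin (GRCh38.p14, chr12:94834398-94834513, plus strand) is shown beside the 116 bases of the KRT19 coding sequence that it resembles (GENCODE 29, GRCh38, minus strand, across the intron between exons 1 and 2, chr17:41525204-41527873). Capitals mark the 8 bases that differ, 93.1% of the bases being identical.
MIR492 hairpin: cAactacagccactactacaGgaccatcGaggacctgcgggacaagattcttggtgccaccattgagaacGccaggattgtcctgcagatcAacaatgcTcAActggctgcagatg
KRT19: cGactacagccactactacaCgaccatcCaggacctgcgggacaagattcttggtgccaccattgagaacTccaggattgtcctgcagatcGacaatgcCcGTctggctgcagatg
The mature microRNA (chr12:94834427-94834449, plus strand, in DNA letters) is shown next, with seed bases 2 to 8 in capitals. Its 23 bases occur in the KRT19 messenger RNA 1 time without a mismatch, read in the same sense. That is identity of sequence and not the complementary match of a target site.
hsa-miR-492: aGGACCTGcgggacaagattctt
The values of the merged locus belong to both symbols and say nothing of the mature microRNA, which is too short for such libraries. The locus was listed far above KRT19 itself and followed its order of cell types. Its hESC values were 480 FPKM in the DE table, 415 in the MESO table, 475 in the NPC table and 440 in the NCSC table. The derivatives were at 1782 FPKM in DE, 5969 in MESO, 313 in NPC and 408 in NCSC. The ratio to hESC was 3.71 in DE, 14.4 in MESO, 0.659 in NPC and 0.927 in NCSC, next to 3.15, 12.2, 0.545 and 0.931 for KRT19. The MESO rise had q = 0.00327 in the authors' deposited table, and the other 3 did not pass. Whether reads of one locus were counted at the other was not tested.

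**Figure D3:**
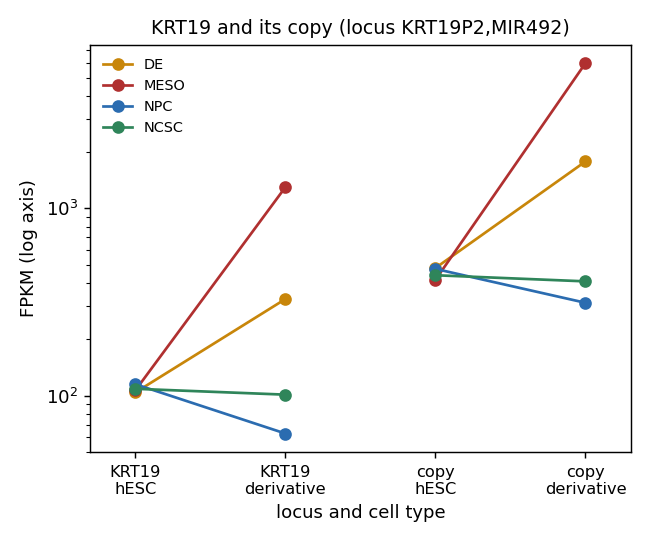
FPKM on a log axis of KRT19 and of the merged locus of its copy KRT19P2 and MIR492, in hESC and in the derivative of the same table, joined by a line per table. Both rise to their highest value in MESO (1298 and 5969 FPKM) and lie lowest in NPC (62.8 and 313 FPKM).

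KRT7, the type II keratin of glandular and ductal epithelia and of trophoblast, was high in MESO alone among the cell types measured. It was at 51.1 FPKM in MESO, where the hESC value was 1.86, and at 0.329 in DE, 0.180 in NPC and 0.306 in NCSC. The MESO rise was 27.5-fold, a change of 4.19, with q = 0.000868 in the authors' deposited table. The gene fell in NPC and in NCSC, by changes of -1.37 and -1.17, with q = 0.00686 and 0.0130 in the authors' deposited table; with pseudocounts of 0.1 and 5 these were -2.95 and -0.45 in NPC and -2.33 and -0.39 in NCSC. In DE, where KRT8, KRT18 and KRT19 lay above hESC, KRT7 lay 7.12-fold below it, and the authors' deposited table gave q = 0.930. KRT8 was 41.7 to 48.2 times as abundant as KRT7 in the hESC columns, 1071 times in DE and 19.3 times in MESO.

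KRT17, a type I keratin of hair follicles, basal cells and wounded epidermis, was listed below 0.2 FPKM in every column but 1. In MESO it rose from 0.175 to 8.17 FPKM, a change of 2.96 with q = 0.0101 in the authors' deposited table. The fold of 46.8 rests on an hESC value close to 0, and the change was 4.91 with a pseudocount of 0.1 and 1.35 with one of 5. In the other 3 tables the gene was not tested, with 0.0449 FPKM in DE, 0.0438 in NPC and 0.179 in NCSC. KRT17 is part of a family of near-identical copies, 7 pseudogenes named after it matching at up to 96.7% identity, and KRT16 next to it on chromosome 17 is a close paralogue. KRT16 itself was at 0.0426 FPKM in hESC and 37.7 in MESO, where the authors' deposited table gave q = 0.0570, and its copies KRT16P1, KRT16P2 and KRT16P3 went from at most 0.0351 FPKM to 8.53, 11.0 and 10.3, none of which passed. KRT16 and its copies were chosen after their values were seen.

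VIM, the type III filament of mesenchymal cells, was above hESC in all 4 derivatives, which none of the other 8 genes was. It was at 281 FPKM in DE, 1026 in MESO, 223 in NPC and 629 in NCSC, against 78.3 to 93.8 over the 4 hESC columns. Those columns come from the same hESC libraries, so their range is not a spread between cultures. The rise was 11.8-fold in MESO (change 3.55), with q = 0.000868 in the authors' deposited table. It was 7.11-fold in NCSC (change 2.82), with q = 0.000455 in the authors' deposited table. It was 2.37-fold in NPC (change 1.24), with q = 0.000323 in the authors' deposited table. In DE the 3.59-fold higher value had p = 0.00560 but q = 0.239 in the authors' deposited table. In MESO the rise of VIM lay beside keratin rises of like size, whereas in NPC and NCSC it lay beside called falls of KRT7, KRT8 and KRT18.

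NES, the large filament protein of neural progenitors, did not pass in any comparison. Its values were 76.6 FPKM in DE, 124 in MESO, 139 in NPC and 96.3 in NCSC. The highest, in NPC, was 1.58 times the hESC value of 88.2 in that table and came nearest to the threshold, with p = 0.0182 and q = 0.0542 in the authors' deposited table. The changes were -0.27 in DE, 0.59 in MESO, 0.65 in NPC and 0.22 in NCSC. In NPC and NCSC the median expressed locus changed by -0.27 and -0.23, and measured from that median NES was 0.92 and 0.45 higher; after quantile normalisation its change was 1.24 in NPC and 0.56 in NCSC. Measured from the median change, the keratin falls in NPC were -1.50 for KRT8, -2.26 for KRT18, -1.10 for KRT7 and -0.59 for KRT19. By the same centring KRT19 in NCSC turned from -0.10 to 0.13. This gene, often used to mark neural progenitors, thus stood at 82.0 to 92.9 FPKM in hESC, and in the FPKM as deposited it differed from hESC of the same table by at most 1.58-fold.

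VIM and NES began at like levels in hESC, with VIM 0.843 to 1.07 times NES, and then parted: VIM was 3.67 times NES in DE, 8.28 times in MESO, 1.60 times in NPC and 6.53 times in NCSC. The 250 bases before the RefSeq start of each (GRCh38.p14) are shown for that reason, the VIM window being chr10:17227991-17228240 on the plus strand and the NES window chr1:156677408-156677657 on the minus strand. Capitals mark GGGCGG, the SP1 box, or GGAAGT, an ETS site, read on either strand.
VIM: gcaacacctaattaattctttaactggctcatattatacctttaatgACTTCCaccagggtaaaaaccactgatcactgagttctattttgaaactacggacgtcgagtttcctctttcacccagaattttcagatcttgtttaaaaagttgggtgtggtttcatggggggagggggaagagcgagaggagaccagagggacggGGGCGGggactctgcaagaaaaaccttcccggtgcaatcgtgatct
NES: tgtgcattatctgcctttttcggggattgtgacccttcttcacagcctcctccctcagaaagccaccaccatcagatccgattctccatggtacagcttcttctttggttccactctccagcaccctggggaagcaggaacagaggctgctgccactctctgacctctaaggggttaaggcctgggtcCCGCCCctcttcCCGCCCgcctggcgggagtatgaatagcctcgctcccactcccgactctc
The RefSeq start used for VIM lies 1037 bases upstream of that of the GENCODE transcript VIM-201, so its window is not the one next to that transcript, while for NES the 2 starts are 10 bases apart. The VIM window held 1 SP1 box and 1 ETS site and the NES window 2 SP1 boxes. Of 35116 promoter windows of that length 42.6% held an SP1 box and 19.5% an ETS site. Neither window held TGANTCA (AP-1, in 6.57% of windows), GCCNNNGGC (TFAP2, in 19.8%) or TATAAA (the TATA box, in 10.7%). The RefSeq window of KRT8 held 1 ETS site and none of the other 4 motifs, and lies 19851 bases upstream of the start of KRT8-201. These matches are descriptions of letters and not evidence of binding.

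NEFL and NEFM, the light and medium chains that co-assemble in axons, had their highest values in NCSC and their lowest in NPC. NEFL was at 3.53 FPKM in DE, 8.59 in MESO, 1.96 in NPC and 30.9 in NCSC. NEFM was at 5.91 FPKM in DE, 5.40 in MESO, 0.955 in NPC and 57.7 in NCSC. In NCSC they rose 4.84-fold and 5.46-fold, both with q = 0.000455 in the authors' deposited table. In NPC they were 3.47-fold and 11.9-fold lower, both with q = 0.000323 in the authors' deposited table, and their changes of -1.40 and -2.66 became -0.76 and -1.45 with a pseudocount of 5. Neither passed in DE or in MESO, where NEFL was 1.49 times and NEFM 0.529 times hESC. NEFM was 1.66 to 1.80 times NEFL in the hESC columns, 1.67 times in DE and 1.87 times in NCSC, but 0.628 times in MESO and 0.487 times in NPC. The genes are neighbours on chromosome 8 (hg19, NEFM 24771273 to 24776606 and NEFL from 24808468). The NCSC table had a second, shorter NEFM row at 0.441 FPKM in hESC and 1.17 in NCSC, which did not pass.

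The third neurofilament chain went the other way in NCSC. NEFH, the heavy chain of mature axons, fell from 4.36 to 0.192 FPKM in NCSC, from 4.64 to 0.289 in NPC and from 4.23 to 0.789 in MESO, with q = 0.000455, 0.000323 and 0.00274 in the authors' deposited tables. INA, a neuronal filament of early neurons, fell in NPC from 13.8 to 6.77 FPKM and did not pass in NCSC (12.6 and 9.31). Among 13 neuronal genes, 3 rose and 5 fell of 11 tested in NPC, and 2 rose and 1 fell of 10 tested in NCSC. Of all loci tested 36.8% were called in NPC and 30.0% in NCSC, so the NCSC count is no more than the share over all loci. The falls in NPC were in TUBB3, the neuronal beta-tubulin and the gene of the list with the highest FPKM in hESC (137 to 37.5 FPKM), GAP43 of growth cones (10.6 to 2.15), the synaptic vesicle protein SYP (2.56 to 0.178), ELAVL3 (1.46 to 0.281) and INA. MAP2, a dendritic microtubule protein, rose to 42.1 FPKM in NPC and to 15.7 in NCSC, STMN2, a stathmin of neurons, to 2.91 and 12.3, and DCX, of migrating young neurons, to 2.82 in NPC. In NCSC SYP fell and TUBB3 did not pass (128 and 101 FPKM). The summed FPKM of the 13 genes was 174 in hESC and 99.1 in NPC of 1 table, and 162 in hESC and 154 in NCSC of the other. Without TUBB3 the direction of the sum turned, from 33.1 to 37.3 FPKM over the hESC columns to 61.6 in NPC and 52.8 in NCSC. In NPC this turn rests largely on MAP2, which held 42.1 of the 61.6 FPKM and was at 0.732 in hESC of that table. Each sum is thus ruled by 1 or a few genes and does not give a common direction of the list. The part of these genes in the neurofilament values was not tested.

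The make-up of the 9 transcripts describes each cell type by shares of their summed FPKM. The sum was 463 to 501 FPKM in hESC, 1284 in DE, 4219 in MESO, 469 in NPC and 978 in NCSC. The 5 keratins held 60.1% to 60.4% of it in hESC, 71.4% in DE and 72.4% in MESO, but 22.3% in NPC and 16.8% in NCSC. VIM held 16.5% to 18.8% in hESC, 21.9% in DE, 24.3% in MESO, 47.4% in NPC and 64.3% in NCSC. The ratio of VIM to the 5 keratins was thus 0.273 to 0.312 in hESC, 0.306 in DE and 0.336 in MESO, and 2.12 in NPC and 3.82 in NCSC. In MESO the total grew while this ratio stayed near that of hESC; in NPC the total stayed within the hESC range and the ratio turned over. NES held 29.7% of the sum in NPC, its highest share, and 2.94% in MESO, its lowest. The neurofilaments held 9.05% in NCSC and 3.45% to 3.61% in hESC, and under 1% elsewhere.

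**Figure D4:**
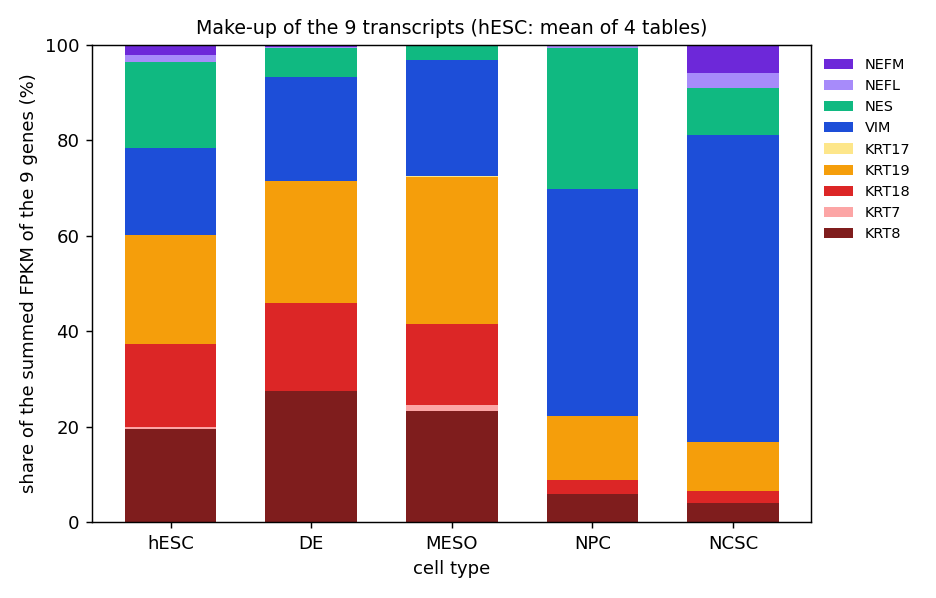
Stacked share (percent) of the summed FPKM of the 9 genes held by each gene, per cell type, with hESC as the mean of the 4 tables. Keratins (brown, red and yellow shades) hold 60.2% in hESC and 72.4% in MESO, and VIM and NES (blue and green) hold most of NPC and NCSC.

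The other genes of the family were followed with lists of 47 keratins, 10 type III and IV filaments (nestin among them) and 3 lamins. Most keratins were silent: 41 of 47 were below 1 FPKM in both columns of the DE table, 37 in MESO and 42 in NPC and NCSC. Of the keratins tested in MESO 7 of 10 rose and none fell; beside the members these were KRT23 (from a listed 0 to 6.98 FPKM) and KRT80 (0.479 to 16.5), a keratin of cell borders. In NPC 5 of 6 tested fell, in NCSC 3 of 6, and in DE none of 6 passed. Over all loci tested, 9.06% rose in MESO, 24.8% fell in NPC and 19.8% fell in NCSC, and 0.427% were called in DE. KRT10 did not pass in any table and was at 5.64 to 12.8 FPKM in the derivatives. The median change of the keratins tested was 1.30 in DE, 3.29 in MESO, -1.12 in NPC and -0.68 in NCSC. The keratins tested include the 4 or 5 members among them, so these counts are not independent of the members.

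Of the 10 type III and IV genes 3 rose and 1 fell in MESO, 1 rose and 5 fell in NPC, and 5 rose and 2 fell in NCSC. This list includes the members VIM, NES, NEFL and NEFM, so its counts are not independent of them. The 1 that rose in NPC was VIM, and VIM, NEFL and NEFM were among the 5 in NCSC. PRPH, peripherin of peripheral neurons, rose in MESO from 0.908 to 26.7 FPKM and in NCSC from 0.872 to 3.09, and fell in NPC from 0.918 to 0.112. SYNM, the vimentin-binding synemin, rose in MESO from 0.877 to 13.2. DES, the muscle filament desmin, rose in NCSC from 3.05 to 14.9. Lamins, the nuclear filaments, did not pass in DE or MESO, where LMNA was at 110 FPKM against 31.0 (q = 0.0580 in the authors' deposited table). LMNA fell in NPC, and LMNB1 (80.0 to 23.3) and LMNB2 (98.7 to 58.1) fell in NCSC. The hESC value of LMNB1 differed between tables, at 111 FPKM beside DE, 124 beside MESO, 147 beside NPC and 80.0 beside NCSC. The size of its change is uncertain to that extent. Over the 51 family genes other than the members, 4 rose and 1 fell of 14 tested in MESO, 5 fell of 11 in NPC, and 2 rose and 4 fell of 11 in NCSC. The counts of this paragraph stand beside 14.4% of all loci tested called in MESO, 36.8% in NPC and 30.0% in NCSC.

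**Figure D5:**
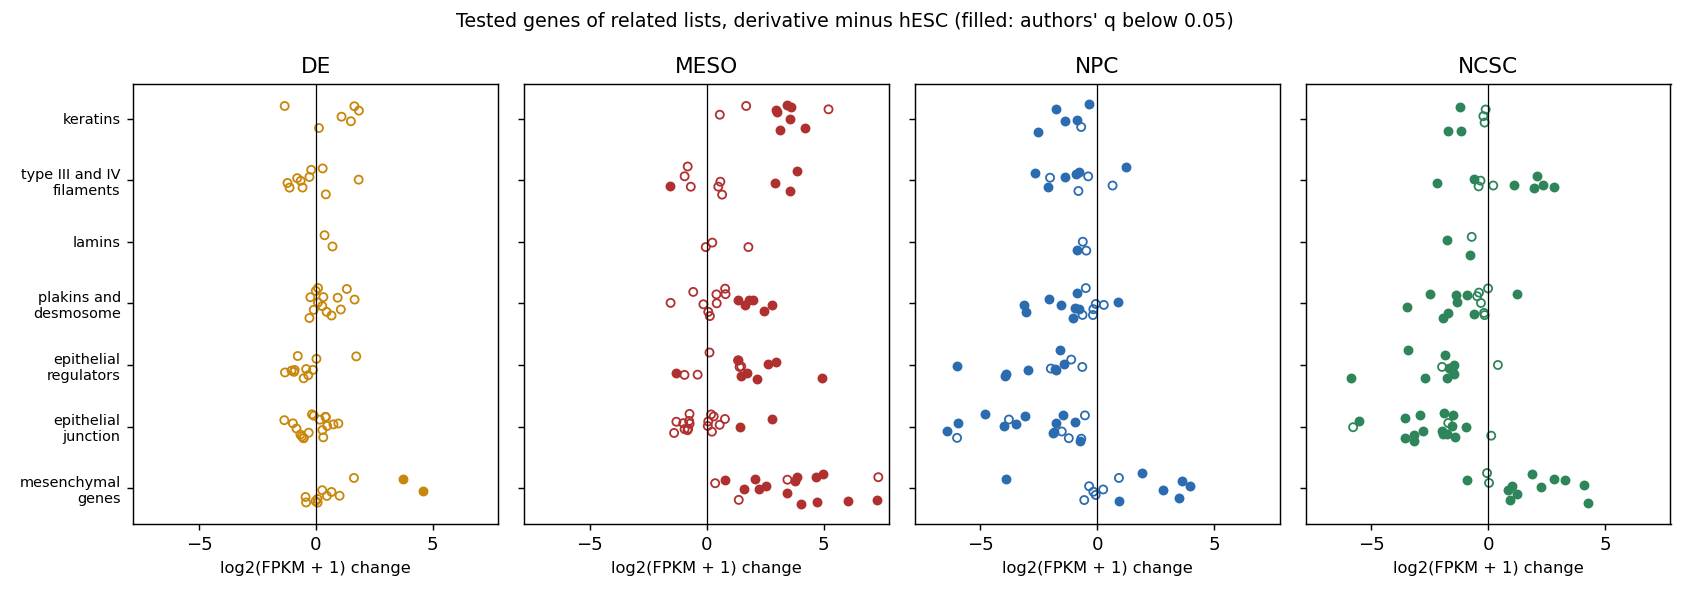
Change in log2(FPKM + 1) against hESC (horizontal axis) of every tested gene of 7 lists, 1 panel per derivative; points are filled where the authors' q was below 0.05 and spread vertically only to be seen. The called keratins lie to the right in MESO and to the left in NPC and NCSC, and all called epithelial regulators and junction genes lie to the left in NPC and NCSC.

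Keratins hang from desmosomes, cell junctions to which plakin proteins tie them. Of 15 plakin and desmosome genes 6 of 15 tested rose in MESO, among them desmoplakin (DSP, 19.1 to 138 FPKM), DSC2 (7.85 to 46.9), DSC3 and PKP2 (16.4 to 59.6). In NPC 8 fell and 1 rose, and in NCSC 8 fell and 1 rose; the largest falls were in PPL, PKP3 and PKP2, with PKP3 going from 15.5 to 1.03 FPKM in NPC and from 14.7 to 0.413 in NCSC. The gene that rose in NCSC was DSP (18.9 to 46.1). In DE none of 14 tested passed. Epithelial regulators gave 7 rises and 1 fall of 14 tested in MESO, with GRHL1 (3.29 to 32.8 FPKM), OVOL1 (2.39 to 19.9) and KLF4 (3.41 to 18.7) up. ESRP1, an epithelial splicing factor, was the 1 that fell there (76.3 to 30.5), and it fell to 0.444 FPKM in NPC and 0.500 in NCSC. In NPC 8 of 11 fell and in NCSC 9 of 11. For both lists the shares over all loci tested were 9.06% risen in MESO, 24.8% fallen in NPC and 19.8% fallen in NCSC.

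Junction and mesenchymal genes were read beside the keratin and VIM values. In MESO 14 of 18 mesenchymal genes rose, SNAI2 from 0.243 to 80.9 FPKM among them, and of 18 epithelial junction genes 2 rose and 16 did not pass, with CLDN4 going from 10.1 to 75.7. MESO therefore had high keratins, high VIM, and junction genes without a called fall. In NPC 12 junction genes fell and in NCSC 15 of 18, CDH1 (E-cadherin) going from 89.6 to 0.0631 FPKM and from 83.6 to 0.823. ZEB1 and ZEB2, repressors of CDH1, rose in both: ZEB2 from 0.204 to 17.6 in NPC and from 0.175 to 21.6 in NCSC. They rose in MESO as well, ZEB2 from 0.109 to 15.3 and ZEB1 from 0.0651 to 0.852, where CDH1 was at 79.2 FPKM in hESC and 137 in MESO and did not pass. Of 13 mesenchymal genes tested in each, 6 rose and 1 fell in NPC, and 10 rose and 1 fell in NCSC. COL1A1 was the 1 that fell in NPC (96.9 to 5.54 FPKM) and it rose in NCSC (89.8 to 329), while VIM rose in both. In DE 2 of 12 mesenchymal genes rose, CDH2 (17.9 to 247) and COL5A2 (6.10 to 171). Over all loci tested, 0.407% rose in DE, 9.06% in MESO, 12.0% in NPC and 10.2% in NCSC. Fallen loci were 24.8% in NPC and 19.8% in NCSC.

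Genes of trophoblast and amnion, extraembryonic epithelia rich in KRT7, KRT8, KRT18 and KRT19, were high in MESO as well. Of 13 tested 11 rose and none fell, with CGA (from a listed 0 to 95.3 FPKM), GABRP (1.18 to 230) and IGFBP3 (3.65 to 620) among them. Among all loci tested there 9.06% rose. HAND1 and ISL1 of that list are splanchnic mesoderm genes too. The summed FPKM of 14 genes of the list was 8.96 to 13.1 in hESC and 2264 in MESO, against 17.9 in DE, 33.7 in NPC and 11.5 in NCSC. These sums are ruled by 1 or a few genes. HAND1 held 758 FPKM and IGFBP3 620 of the sum in MESO, and IGFBP3 held 32.3 of that in NPC. None of the 14 was at 0 in MESO, but ELF5, a trophoblast stem cell factor, was at 0.0760 FPKM, and CDX2 at 5.18 did not pass. Their part in the keratin values of MESO was not tested.

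The genes whose 4 changes lay closest to those of a member were sought among 8681 genes that reached 10 FPKM somewhere, by Euclidean distance on the log2 scale. Nearest to KRT8 were ABCG2 (distance 0.75), HSPB8 (0.85) and EPB41L3 (1.00), with KRT18 at rank 4 (1.03) and KRT19 at rank 9 (1.44). Nearest to KRT19 were NRP1 (0.61), BMPER (0.63) and ACPP (0.73). Nearest to VIM were MLLT3 (0.89), CAPN2 (1.04) and EPHB3 (1.05), and the keratin closest to it was KRT19 at 3.60. Nearest to NES were MPDZ (0.18), MPP5 (0.24) and SHROOM3 (0.25). Nearest to NEFM were TNFSF9 (1.45), PCBD2 (1.60) and VGF (1.70), and NEFL was at rank 5 (1.84). The distances rest on 4 changes that share the hESC libraries, and are a description without a test.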

How the data were processed

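Poly-A RNA was measured in 10 libraries of 5 cell types. Upstream tools named in the submitters' processing notes are Cufflinks 2.2.1, featureCounts, Subread 1.5.2 and TopHat2 2.0.13, with hg19 as the build; which tool made the values is not stated there. Each of 4 deposited tables pairs hESC with a derivative at 1 authors' FPKM value per cell type, so libraries had been combined before deposit, by a scaling that the sources used here do not give. The tables also hold a signed test statistic (a score computed by the authors) and, per the file headers, the authors' p-value and q-value; a score of 0 with a p-value of 1 marks a locus as not tested. A deposited log2 fold change column was not used.

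The tables were read with Python 3.11.15 and pandas 2.3.3. Gene cells were split at commas, rows outside chromosomes 1 to 22 and X were left out, and of several rows of 1 symbol that with the highest mean FPKM was kept. A change is the difference of log2(FPKM + 1) between a derivative and hESC in 1 table. Levels from different tables, normalised separately, are set side by side as a description. Calls are the authors' q-value below 0.05 over the whole table. Loci holding 1 of 18 symbols whose FPKM and statistic disagreed, by rules from earlier work on these data, were left out of lists and likeness; no member is among them. Loci of several symbols were left out of lists. Alternatives were pseudocounts of 0.1 and 5, quantile normalisation, centring on the median change, hESC values of the other tables, summed rows, a minimum change of 1, an FPKM filter of 1 and normal p-values from the statistic with Benjamini-Hochberg adjustment (statsmodels 0.14.6), a procedure tested on simulated data. Similar transcripts were found with BLAST 2.17.0 in GENCODE 29. RefSeq gave the microRNA sequences and promoter windows for 3 of the 9 genes (KRT8, VIM and NES).

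The members, the 13 gene lists and the tests were chosen with earlier results of these data known. From each list up to 4 called genes per comparison with the largest change, or the 2 of highest mean where none passed, could be named, and not all are printed. Outside that rule, KRT16 and its copies, KRT10 beyond DE, LMNA, ESRP1, CDX2 and ELF5 in MESO, STMN2, DCX and ELAVL3 in NPC, ZEB1, ZEB2 and CDH1 in MESO, TUBB3, INA, SOX10, DSP and COL1A1 in NCSC, and the splanchnic gene FOXF1 were chosen after their values were seen. HAND2 in MESO and LMNB1 in NPC were also chosen after their values were seen. Limma on libraries, as planned for values per library, could not be run on 1 value per cell type.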

Additional observations from a re-analysis of the deposited data

Results flagged for a closer look

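For 6 of the 9 genes the change against hESC was called in opposite directions in different derivatives. The share of all loci called in opposite directions was not computed, so it is not known whether 6 of 9 is unusual. Calls in either direction were common, at 14.4% of loci tested in MESO, 36.8% in NPC and 30.0% in NCSC. The difference between derivatives was not tested, since the tables hold 1 value per cell type, and the comparisons share the hESC libraries. KRT8 changed by 3.45 in MESO, -1.77 in NPC and -1.20 in NCSC on the log2(FPKM + 1) scale. KRT18 changed by 3.14 in MESO, -2.53 in NPC and -1.72 in NCSC. KRT7 changed by 4.19 in MESO, -1.37 in NPC and -1.17 in NCSC. KRT19 changed by 3.59 in MESO and -0.86 in NPC. Among the neurofilaments, NEFL changed by 2.11 in NCSC and -1.40 in NPC, and NEFM by 2.34 in NCSC and -2.66 in NPC.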

How the results depend on the processing

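The 36 member changes were recomputed under 6 settings, and 210 of the 216 values kept their direction. That count overstates the stability, since a pseudocount cannot turn a direction and summing rows altered only NEFM in NCSC. The direction was open to change under the remaining settings. Of 36 values each, 3 turned with centring, 2 with quantile normalisation and 1 with hESC values of the other tables. Sizes moved more: over these settings the change of KRT19 in NPC ran from -0.87 to -0.29, of KRT7 from -2.95 to -0.45 in NPC, -2.33 to -0.39 in NCSC and -2.51 to -0.46 in DE, of KRT17 in MESO from 1.35 to 4.91, and of NES from 0.63 to 1.24 in NPC and 0.13 to 0.56 in NCSC. In NPC that of NEFM ran from -3.44 to -1.45 and that of NEFL from -1.74 to -0.76. The 6 that turned belong to changes that were not called: KRT19 in NCSC became 0.20 with quantile normalisation and 0.13 when centred on the median change, KRT17 in NCSC became 0.072 and 0.22 under these and 0.030 when hESC was taken from the remaining 3 tables, and KRT17 in NPC became 0.077 when centred. With normal p-values from the statistic KRT19 in NPC (adjusted p = 0.0932) and KRT8 in NCSC (adjusted p = 0.0745) were no longer called, and all other member calls stayed. The intermediate filament genes called in NPC numbered 7 in place of 12 when a change of at least 1 was also asked for, since smaller changes are then dropped. With normal p-values they numbered 8 in place of 12 in NPC and also in NCSC, and stayed at 0 in DE and 11 in MESO. No paired analysis was possible because the tables hold 1 value per cell type, and runs leaving out a library were not possible for the same reason. Read depth is unknown, so no counting interval could be given, and values below about 1 FPKM, such as those of KRT17 and of KRT7 outside hESC and MESO, are the least certain.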
